A study of Saccharomyces cerevisiae with 12 samples.

Results

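The 10 genes described here encode the core of the mating pheromone pathway of budding yeast, from the receptor to the transcription factor: STE2, GPA1, STE4, STE18, STE5, FUS3, KSS1, STE12, SST2 and MSG5. They were chosen by name, for their place in the pathway, from the 6412 genes and other features listed in each sample, and all 10 were among the 5662 that passed the filter on low counts. Polyadenylated RNA was sequenced from 3 groups of Saccharomyces cerevisiae cells with 4 replicates each. Every group was first held in G1 for 2.5 h with α-factor, the pheromone that this pathway senses. Wild-type S cells (strain E3087) were then washed and transferred to fresh medium without the arrest for 30 min. CDK/DDK bypass G1 cells (strain YKR1503) stayed arrested and received galactose for 3 h, which induced Dbf4, Dpb11 and sld2-T84D, a phosphorylation-mimicking allele, from the galactose-inducible promoter pGAL1-10. Together these proteins start DNA replication in G1 without the usual control by the kinases CDK and DDK. Wild-type G1 cells (strain YKR1500) stayed arrested through the same 3 h of galactose without these constructs. All strains derive from the W303 background, and the study built its strains in an E3087 background that can incorporate the nucleoside analog EdU unless stated otherwise. The labels give no time in galactose for the wild-type S cells. Strain, cell cycle phase, removal of the pheromone, the stated time in galactose and the time since the start of the arrest all differ between the wild-type S group and the G1 groups and cannot be told apart.

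In a haploid cell of mating type a, α-factor binds the receptor Ste2, which releases the Gβγ dimer Ste4-Ste18 from the Gα subunit Gpa1. The dimer recruits the scaffold Ste5, on which the kinases Ste11 and Ste7 activate the MAP kinases Fus3 and Kss1, and these relieve the inhibition of the transcription factor Ste12. Ste12 induces genes for cell fusion and mating, among them several genes of the pathway itself, while Sst2 and Msg5 switch the signal off. The pathway also arrests the cell cycle in G1 through the CDK inhibitor Far1, which is why α-factor is used to synchronize cells.

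Ste12 binds the pheromone response element, searched here as TGAAACA on both strands in the 500 bases before each start codon. The sequences are those of the S288C reference (R64, the same assembly as sacCer3), not of the strains used. The stretch upstream of STE2, which changed most of the 10 genes in wild-type S, and the stretch upstream of STE12, which has more matches than any other of the 10 genes and was chosen after this count was seen, are shown 5′ to 3′ on the strand of the gene with TGAAACA in capitals. The STE2 stretch lies at chr6:82230-82429 and the STE12 stretch at chr8:273674-273823, both on the plus strand.
STE2: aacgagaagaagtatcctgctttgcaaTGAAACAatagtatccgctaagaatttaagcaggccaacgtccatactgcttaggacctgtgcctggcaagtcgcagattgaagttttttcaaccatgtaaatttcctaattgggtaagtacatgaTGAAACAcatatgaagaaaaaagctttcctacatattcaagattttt
STE12: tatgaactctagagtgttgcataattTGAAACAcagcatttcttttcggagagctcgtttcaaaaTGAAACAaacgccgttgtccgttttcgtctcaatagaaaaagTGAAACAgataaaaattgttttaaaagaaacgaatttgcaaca
FUS3 and SST2, which also changed more than 10-fold, had 2 matches and 1 match in their windows. Each is shown with 10 bases on either side, on the strand that reads TGAAACA. With these flanks, the first FUS3 sequence spans chr2:192179-192205 on the minus strand, opposite to the gene, and its match begins 262 bases before the start codon. The other FUS3 sequence spans chr2:192285-192311 on the plus strand, as the gene does, with its match at 156 bases. The SST2 sequence spans chr12:1041595-1041621 on the minus strand, which is also the strand of SST2, with its match at 245 bases.
FUS3 opposite strand: agttccagggTGAAACAgatctaaaac
FUS3 same strand: tacagggcatTGAAACAattgcagaaa
SST2 same strand: tattcaatttTGAAACAatgatcccaa
In all, 6 of the 10 genes had a match, 11 matches in total, none of which overlapped another. STE12 had 3, STE2, STE4 and FUS3 had 2 each, and STE18 and SST2 had 1 each. The window held none for GPA1, STE5, KSS1 and MSG5. Of 5971 protein-coding genes searched the same way, 719 (12%) had at least 1 match, 56 (0.938%) had at least 2 and 5 (0.0837%) had at least 3. The number of matches did not order the genes by their change: GPA1, with no match, was 18.7-fold lower in wild-type S relative to wild-type G1, while STE4, with 2 matches, was 1.90-fold lower. Only this exact sequence was counted, so other forms of the element and sites outside the window were not searched. A match is a description of the sequence and does not show that Ste12 binds there, nor does the lack of one show that it does not.

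**Figure D1:**
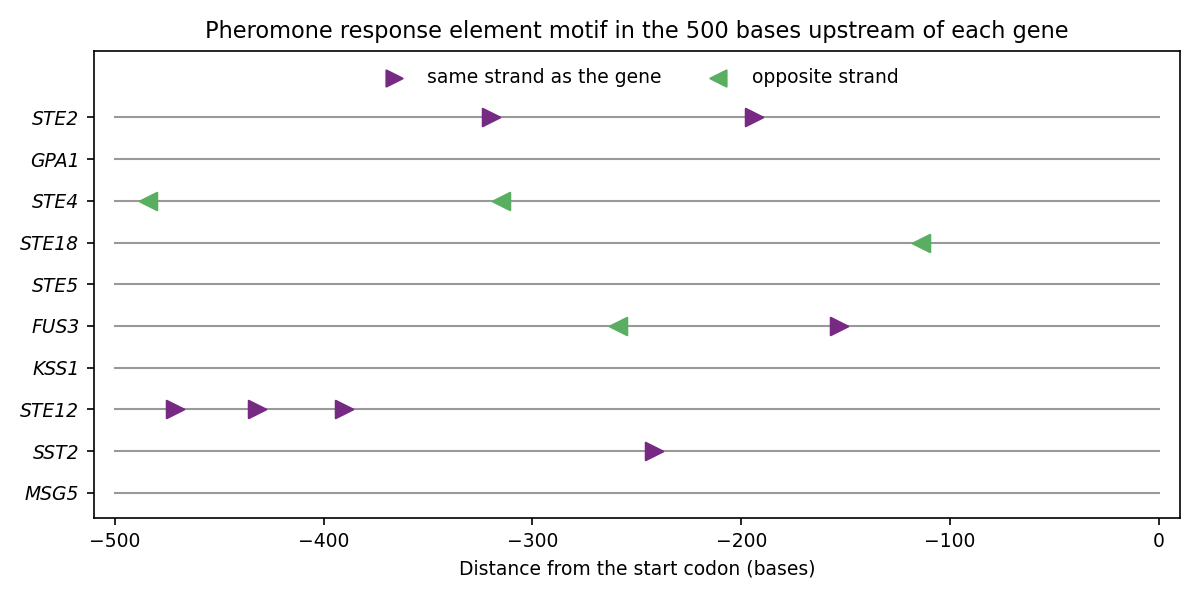
Matches to TGAAACA in the 500 bases upstream of the start codon of each of the 10 genes. The horizontal axis gives the distance from the start codon in bases, and each arrowhead is 1 match, pointing right where it lies on the strand of the gene and left where it lies on the opposite strand. STE12 has 3 matches, all on its own strand and in the distal part of the window, and GPA1, STE5, KSS1 and MSG5 have none.

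Counts on genes ranged from 8162140 to 10545835 per sample. The 10 genes are each 1 coding exon in the R64 annotation, overlap no other annotated gene, and consist entirely of 42-base stretches found once in the genome. The lowest count of any of them in any sample was 262 (GPA1 in wild-type S replicate 2). Levels are given as TPM, the share of a gene among all transcripts of a sample computed from counts and gene length on a scale common to all samples, so that genes can be compared with each other. Fold changes come from edgeR on the counts and are given on the log2 scale with their standard error (SE), and a gene was called at an adjusted p below 0.1. The labels were checked on the induced genes: DPB11 averaged 1014.5 ± 46.8 TPM in CDK/DDK bypass G1 and 19.3 ± 0.243 TPM in wild-type G1 (SD, n = 4 each), SLD2 2580.2 ± 171 and 27.2 ± 2.47 TPM, and DBF4 440.2 ± 24.3 and 49.1 ± 2.01 TPM. In every group, replicate 1 was more like replicate 2, and replicate 3 more like replicate 4, than either pair was like the other. The mean chi-square per gene was 1.49 to 2.43 within these pairs and 3.02 to 46.6 between them, the highest values between the pairs of wild-type G1. The labels do not say what the pairs share, nor whether replicates were separate cultures, so p-values measure the spread between these samples only.

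The 10 genes together held 0.0646 ± 0.00399% of all counts on genes in wild-type S, 0.700 ± 0.0140% in CDK/DDK bypass G1 and 0.701 ± 0.0304% in wild-type G1 (SD, n = 4 each). Each of the 10 was lower in wild-type S than in either arrested group, with no overlap between samples. The share of all genes without such overlap was not computed. Of all genes tested, 43.3% were called lower in wild-type S relative to wild-type G1 and 43.6% relative to CDK/DDK bypass G1. In these bulk samples, fewer cells with an active pathway and less RNA per cell cannot be told apart. Within wild-type G1, the order of the levels was STE2, FUS3, SST2, GPA1, STE4, STE18, STE12, MSG5, KSS1 and STE5, and the samples of neighbours in this order overlapped only for STE4 and STE18. CDK/DDK bypass G1 cells had the order STE2, FUS3, GPA1, SST2, STE18, STE4, KSS1, STE12, MSG5 and STE5, with overlap between STE4 and KSS1 and between STE12 and MSG5. Wild-type S cells had another order: STE4 was highest, followed by STE18, and then by FUS3, STE2 and KSS1, whose neighbouring ranges overlapped. STE12, MSG5, STE5, GPA1 and SST2 came last in wild-type S, also with overlap between neighbours. STE2 ranked above 56.1% of genes in wild-type S, above 99.3% in CDK/DDK bypass G1 and above 99.2% in wild-type G1.

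**Figure D2:**
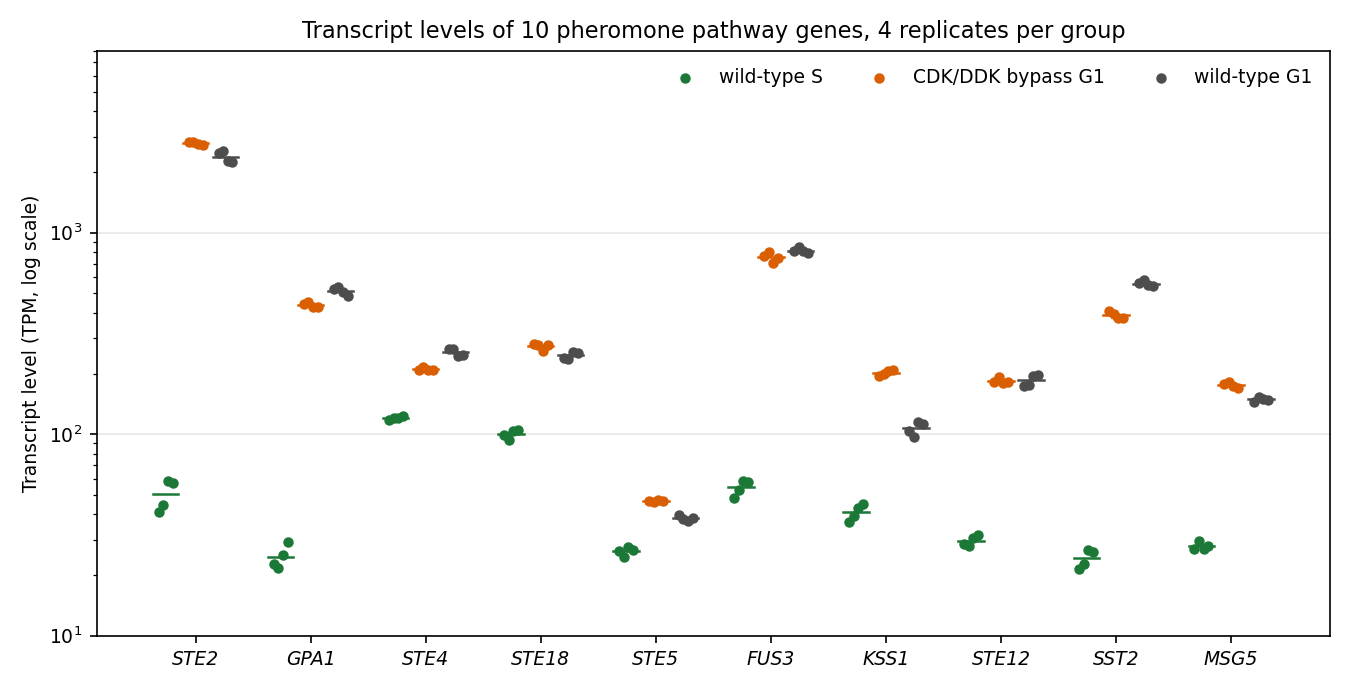
TPM of the 10 genes on a log axis, with 1 point per replicate and a line at the mean of 4 replicates, for wild-type S, CDK/DDK bypass G1 and wild-type G1 from left to right. The wild-type S points lie below those of both arrested groups for every gene, while the arrested groups lie close together, with KSS1 further apart at means of 202 TPM in CDK/DDK bypass G1 and 107 TPM in wild-type G1.

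STE2 (YFL026W, chr6:82580-83875, plus strand) encodes the α-factor receptor, a G protein-coupled receptor made in a cells only. It had 41.2, 44.5, 58.7 and 57.0 TPM in wild-type S replicates 1 to 4, against 2805, 2823, 2742 and 2738 TPM in CDK/DDK bypass G1 and 2489.7, 2553, 2257 and 2246.5 TPM in wild-type G1. Its level in wild-type S was thus 2.11% of that in wild-type G1, and the groups were far apart. The receptor transcript had the largest fold change of the 10 genes in this comparison (log2 fold change -5.40 ± 0.11 SE, 42.4-fold lower, edgeR adjusted p = 1.24e-13). The 4 CDK/DDK bypass G1 samples lay above the 4 wild-type G1 samples by a small margin (log2 fold change 0.22 ± 0.09 SE, edgeR adjusted p = 0.0734). This call was lost when any of the 4 bypass replicates, wild-type G1 replicate 3 or wild-type G1 replicate 4 was left out, with edgeR adjusted p of 0.116 to 0.157.

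GPA1, STE4 and STE18 encode the α, β and γ subunits of the G protein, and they differed in how far they fell. GPA1 (YHR005C, chr8:113499-114917, minus strand), whose product holds the dimer inactive at rest, had 22.6, 21.6, 25.1 and 29.0 TPM in wild-type S, against 445, 454, 427 and 428 TPM in CDK/DDK bypass G1 and 527, 539.9, 509 and 484 TPM in wild-type G1. It was 18.7-fold lower in wild-type S relative to wild-type G1 (log2 fold change -4.22 ± 0.08 SE, edgeR adjusted p = 4.88e-14). STE4 (YOR212W, chr15:742910-744181, plus strand), the β subunit that carries the signal on, had 117, 120.3, 119.8 and 123 TPM in wild-type S, against 207, 216, 209 and 208 TPM in CDK/DDK bypass G1 and 264, 264, 244 and 248 TPM in wild-type G1. Its fall in wild-type S was much smaller than that of GPA1, 1.90-fold against wild-type G1 (log2 fold change -0.93 ± 0.04 SE, edgeR adjusted p = 2e-10). STE18 (YJR086W, chr10:586068-586400, plus strand), the γ subunit that anchors the dimer at the membrane, had 98.9, 93.6, 103 and 105 TPM in wild-type S, against 279, 276, 259 and 277 TPM in CDK/DDK bypass G1 and 240.2, 236, 256 and 253 TPM in wild-type G1. It was 2.19-fold lower in wild-type S relative to wild-type G1 (log2 fold change -1.13 ± 0.05 SE, edgeR adjusted p = 6.37e-11).

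Between the arrested groups the subunits moved in different directions, and no samples of the groups overlapped. In this comparison 54.5% of all genes were called, and the share of all genes without overlap was not computed. GPA1 was lower in CDK/DDK bypass G1 relative to wild-type G1 (log2 fold change -0.23 ± 0.07 SE, edgeR adjusted p = 0.0137), as was STE4 (-0.28 ± 0.04 SE, edgeR adjusted p = 0.00013), whereas STE18 was higher (0.15 ± 0.04 SE, edgeR adjusted p = 0.0127). Scaling by the added ERCC spike-in RNA in place of TMM moved the median of all genes in this comparison to 0.20, and under it GPA1 was at -0.02 and STE4 at -0.07, both below that median and neither called (edgeR adjusted p = 0.903 and 0.592). STE18 was also not called when replicates 3 and 4 alone were compared (log2 fold change 0.09, edgeR adjusted p = 0.185). Its lowest bypass sample had 258.98 TPM and its highest wild-type G1 sample 256.17 TPM. In the main setting 57.9% of genes had a larger change than STE18.

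STE5 (YDR103W, chr4:658350-661103, plus strand) encodes the scaffold that binds the Gβγ dimer and all 3 kinases of the cascade. It was the least abundant of the 10 transcripts in both arrested groups, with 26.2, 24.6, 27.6 and 26.7 TPM in wild-type S, against 46.7, 46.1, 46.9 and 46.6 TPM in CDK/DDK bypass G1 and 39.6, 37.8, 37.2 and 38.3 TPM in wild-type G1. STE5 also had the smallest fall in wild-type S relative to wild-type G1, 1.301-fold (log2 fold change -0.38 ± 0.04 SE, edgeR adjusted p = 1.69e-06), and 60.4% of genes had a larger change in that comparison. It was higher in CDK/DDK bypass G1 relative to wild-type G1 (log2 fold change 0.28 ± 0.04 SE, edgeR adjusted p = 0.000119), with a difference between the lowest bypass sample and the highest wild-type G1 sample of 46.1 against 39.6 TPM.

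The MAP kinases FUS3 and KSS1 differed from each other in every comparison. FUS3 (YBL016W, chr2:192451-193512, plus strand), the kinase specific to mating, had 48.4, 53.0, 58.6 and 57.8 TPM in wild-type S, against 771, 804, 710.3 and 751 TPM in CDK/DDK bypass G1 and 814, 845, 815 and 789 TPM in wild-type G1. It was 13.4-fold lower in wild-type S relative to wild-type G1 (log2 fold change -3.74 ± 0.06 SE, edgeR adjusted p = 2e-14). KSS1 (YGR040W, chr7:575398-576504, plus strand), which acts in filamentous growth as well as in mating, had 36.8, 39.3, 43.15 and 44.8 TPM in wild-type S, against 195, 199, 206 and 208 TPM in CDK/DDK bypass G1 and 104, 97.2, 114 and 113 TPM in wild-type G1. Its fall in wild-type S was 2.33-fold relative to wild-type G1 (log2 fold change -1.22 ± 0.06 SE, edgeR adjusted p = 7.53e-10) and 4.39-fold relative to CDK/DDK bypass G1 (-2.14 ± 0.06 SE, edgeR adjusted p = 2.67e-12).

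KSS1 also had the largest difference of the 10 genes between the arrested groups. It was 1.89-fold higher in CDK/DDK bypass G1 relative to wild-type G1 (log2 fold change 0.92 ± 0.06 SE, edgeR adjusted p = 2.39e-07), and only 2.26% of the genes tested had a larger change in either direction. FUS3 did not pass the threshold (log2 fold change -0.10 ± 0.06 SE, edgeR adjusted p = 0.139), and its samples overlapped between the arrested groups. With spike-in scaling the sign of the FUS3 value turned (0.11, below the median of 0.20 for all genes), and it was past the threshold without bypass replicate 2 (-0.14, edgeR adjusted p = 0.0886) and without wild-type S replicate 1 (-0.11, edgeR adjusted p = 0.0955). FUS3 was also called lower in replicates 1 and 2 alone (-0.09, edgeR adjusted p = 0.0305), in replicates 3 and 4 alone (-0.12, edgeR adjusted p = 0.00213) and with library totals (-0.13, edgeR adjusted p = 0.0843).

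STE12 (YHR084W, chr8:274174-276240, plus strand), the transcription factor at the end of the cascade, had 28.6, 28.0, 30.5 and 31.5 TPM in wild-type S, against 182, 191, 179.5 and 181 TPM in CDK/DDK bypass G1 and 174, 175, 194 and 197 TPM in wild-type G1. It was 5.58-fold lower in wild-type S relative to wild-type G1 (log2 fold change -2.48 ± 0.05 SE, edgeR adjusted p = 8.63e-14). No difference between the arrested groups was detectable (log2 fold change -0.01 ± 0.05 SE, edgeR adjusted p = 0.843), and the bypass samples lay within the range of the wild-type G1 samples. The pairs of replicates went opposite ways here: the log2 fold change was 0.08 in replicates 1 and 2 alone (edgeR adjusted p = 0.0524) and -0.10 in replicates 3 and 4 alone (edgeR adjusted p = 0.0149). With spike-in scaling STE12 was called higher at 0.20 (edgeR adjusted p = 0.0834), where the median of all genes was also 0.20.

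SST2 and MSG5, which dampen the pathway, both fell in wild-type S and moved in opposite directions in the bypass. SST2 (YLR452C, chr12:1039270-1041366, minus strand) encodes the regulator of G protein signaling that speeds GTP hydrolysis by Gpa1. It had 21.5, 22.6, 26.6 and 26.1 TPM in wild-type S, against 409.6, 395, 377 and 377 TPM in CDK/DDK bypass G1 and 560.4, 581, 549 and 543 TPM in wild-type G1. SST2 was 20.6-fold lower in wild-type S relative to wild-type G1 (log2 fold change -4.37 ± 0.07 SE, edgeR adjusted p = 1.43e-14). It was also 1.43-fold lower in CDK/DDK bypass G1 relative to wild-type G1 (log2 fold change -0.52 ± 0.06 SE, edgeR adjusted p = 2e-05), the largest fall of the 10 genes between the arrested groups, which 9.04% of genes exceeded in size. With spike-in scaling it was still called at -0.31. MSG5 (YNL053W, chr14:529942-531411, plus strand) encodes a dual-specificity phosphatase that acts on Fus3. Its levels were 27.0, 29.7, 26.8 and 27.9 TPM in wild-type S, against 178, 182, 173 and 169 TPM in CDK/DDK bypass G1 and 144, 154, 150.05 and 148 TPM in wild-type G1. MSG5 was 4.78-fold lower in wild-type S relative to wild-type G1 (log2 fold change -2.26 ± 0.04 SE, edgeR adjusted p = 5.35e-14) and 1.18-fold higher in CDK/DDK bypass G1 relative to wild-type G1 (0.23 ± 0.04 SE, edgeR adjusted p = 0.000438).

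In wild-type S relative to wild-type G1, all 10 genes were called lower, beside 83.8% of all genes called in either direction and 43.3% called lower. Their median log2 fold change was -2.37, against -0.02 over all 5662 genes tested, and 8 of the 10 lay below -1, as did 12.5% of all genes. Relative to CDK/DDK bypass G1, all 10 were again called lower in wild-type S, beside 85.1% of all genes called in either direction and 43.6% called lower. This comparison shares its wild-type S samples with the previous one. The log2 fold changes against the bypass were -5.62 for STE2, -3.99 for GPA1, -0.64 for STE4, -1.28 for STE18, -0.66 for STE5, -3.64 for FUS3, -2.14 for KSS1, -2.47 for STE12, -3.84 for SST2 and -2.49 for MSG5. Between CDK/DDK bypass G1 and wild-type G1, 8 of the 10 were called, 5 higher (STE2, STE18, STE5, KSS1 and MSG5) and 3 lower (GPA1, STE4 and SST2), beside 54.5% of all genes called. None of these 8 changes reached 2-fold in the main setting, and the median size of the change was 0.23 for the 10 genes and 0.18 for all genes. With spike-in scaling, which moved the median of all genes to 0.20, KSS1 was beyond 2-fold at a log2 fold change of 1.13. STE2 was then at 0.43, STE18 at 0.36, STE5 at 0.50 and MSG5 at 0.45, and the values for GPA1, STE4 and SST2 are given above. With counts summed within replicates 1 and 2 and within replicates 3 and 4, 5 of the 10 were called in this comparison (KSS1, SST2, STE4, STE5 and MSG5), and 1477 of all genes in place of 3083.

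**Figure D3:**
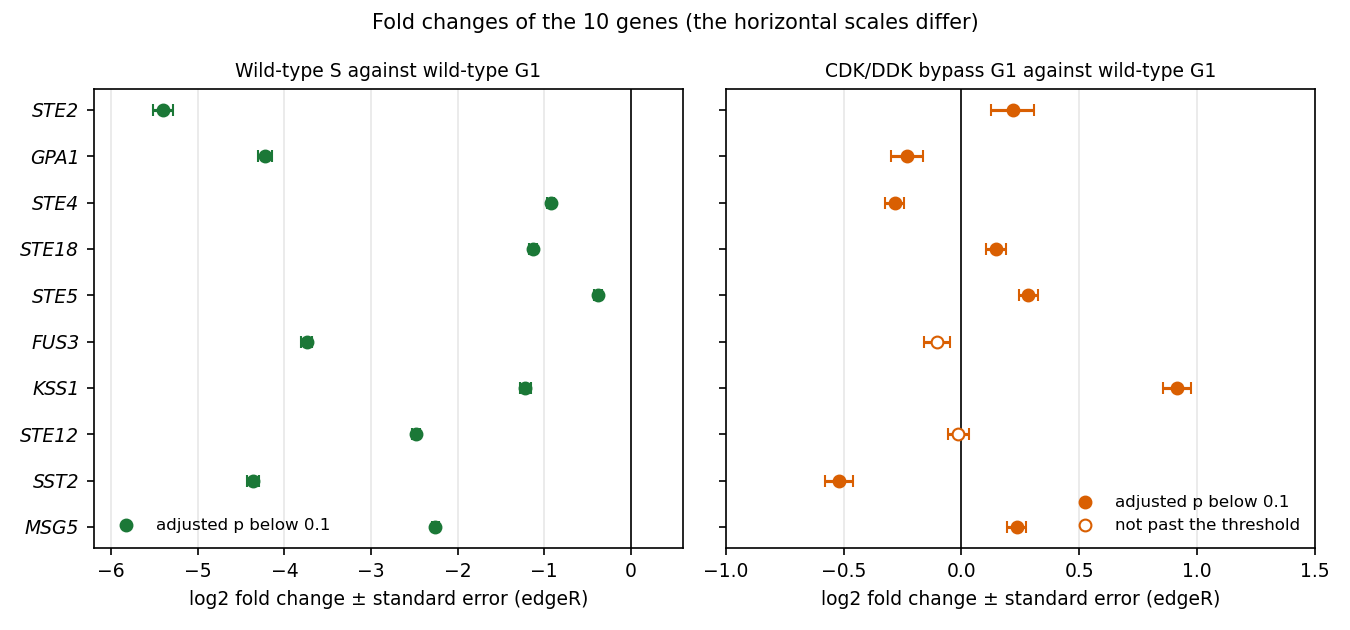
Log2 fold changes of the 10 genes with their standard errors from edgeR, for wild-type S against wild-type G1 (left) and CDK/DDK bypass G1 against wild-type G1 (right), on different horizontal scales. Filled points are past an adjusted p of 0.1 and open points are not. All points on the left lie below 0, down to -5.40 for STE2, whereas those on the right lie between -0.52 for SST2 and 0.92 for KSS1.

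Ratios between partner transcripts within a sample do not depend on how libraries are scaled. Of 4 ratios compared between the 3 pairs of groups, 11 of 12 differences passed the threshold of 0.1 in a two-sided exact permutation test with adjustment over the 12 tests. In 10 of these the samples of the groups did not overlap (exact adjusted p = 0.0343 for each, from the smallest p that 4 samples against 4 can give, 0.0286). Taken as differences within replicate numbers, 4 pairs allow no exact p below 0.125, so no ratio could pass in a paired test. The permutation test also treats the 4 samples of a group as exchangeable, although replicates within each group were alike in pairs, as described above. With those pairs of like replicates as the units, there are too few for any ratio to pass. The p-values of the ratios thus measure the spread between these samples only. FUS3 to KSS1 was 1.33 ± 0.0314 in wild-type S, 3.77 ± 0.279 in CDK/DDK bypass G1 and 7.67 ± 0.788 in wild-type G1 (SD, n = 4 each), and no samples of different groups overlapped. STE4 to GPA1, the transcripts of the signaling subunit and of the subunit that holds it, was 4.95 ± 0.566 in wild-type S, 0.479 ± 0.0104 in CDK/DDK bypass G1 and 0.496 ± 0.0146 in wild-type G1 (SD, n = 4 each). The β subunit transcript thus outnumbered that of the α subunit in each wild-type S sample and was below it in each arrested sample. The arrested groups overlapped in this ratio (exact permutation p = 0.114).

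STE18 to STE4, the partners of the dimer, was 0.833 ± 0.0374 in wild-type S, 1.299 ± 0.0491 in CDK/DDK bypass G1 and 0.967 ± 0.0789 in wild-type G1 (SD, n = 4 each), and the bypass samples stood above those of both other groups. SST2 to GPA1, the transcripts of the damper and of its target, varied least, with 0.990 ± 0.0762 in wild-type S, 0.888 ± 0.0226 in CDK/DDK bypass G1 and 1.09 ± 0.0249 in wild-type G1 (SD, n = 4 each). Wild-type S and CDK/DDK bypass G1 overlapped in this ratio, although their difference was past the threshold (exact permutation p = 0.0571, adjusted p = 0.0623).

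**Figure D4:**
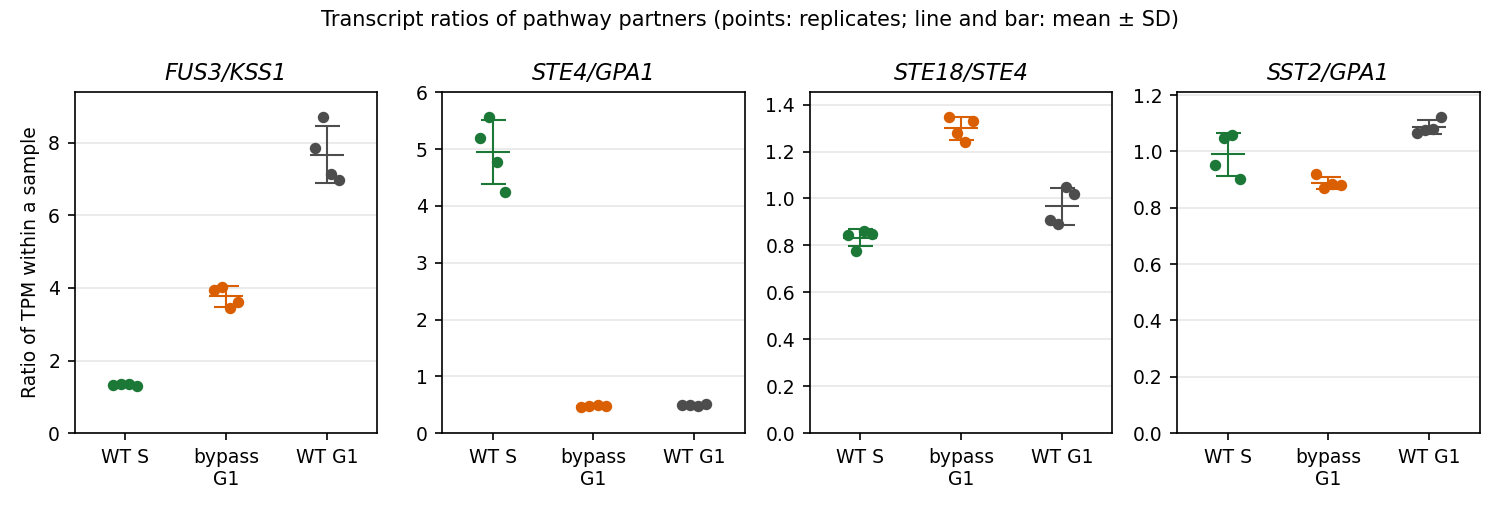
Ratios of TPM within each sample for FUS3/KSS1, STE4/GPA1, STE18/STE4 and SST2/GPA1, with 1 point per replicate and the mean ± SD of 4 replicates, for wild-type S, CDK/DDK bypass G1 and wild-type G1 from left to right. The vertical axes start at 0 and differ between panels. FUS3/KSS1 averages 1.33 in wild-type S, 3.77 in the bypass and 7.67 in wild-type G1, while STE4/GPA1 is high in wild-type S alone.

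The remaining pathway was described by 29 further genes in 4 groups by role, all of which were tested. In wild-type S relative to wild-type G1, 23 were lower, 3 were higher (PTP3, YCK1 and YCK2) and 3 were not called (STE20, CDC42 and MCM1), beside 83.8% of all genes called and 43.3% called lower. Their median log2 fold change was -2.38. All 10 mating genes under Ste12 control fell, with log2 fold changes of -3.93 to -7.00, the lowest being that of PRM6, a gene named for its regulation by pheromone. FUS1, needed for cell fusion, had a log2 fold change of -6.23 ± 0.12 SE, with means of 12.1 TPM in wild-type S and 1020.9 TPM in wild-type G1. Of the 5 nuclear partners and cell cycle genes, 4 fell, among them FAR1, the CDK inhibitor of the arrest, at -5.05 ± 0.06 SE, and TEC1, the partner of Ste12 in filamentous growth, at -3.65 ± 0.08 SE. Of the 7 kinases and adaptors between the G protein and the MAP kinases, 5 fell and none rose. STE11, the kinase at the top of the cascade, was at -0.96 ± 0.08 SE, STE7, the kinase that phosphorylates Fus3 and Kss1, at -0.34 ± 0.06 SE, and STE20, the kinase that activates Ste11, at 0.05 ± 0.08 SE and not called. The 7 phosphatase and receptor desensitization genes split, with 4 lower and 3 higher, the highest being PTP3, a tyrosine phosphatase of Fus3, at 0.64 ± 0.08 SE.

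In wild-type S relative to CDK/DDK bypass G1, 23 of the 29 genes were lower and 3 higher, beside 85.1% of all genes called and 43.6% called lower. The median log2 fold change of the 29 was -2.23, and the values ran from -7.14 for PRM6 to 0.66 for YCK2, a casein kinase that acts on the receptor. Between CDK/DDK bypass G1 and wild-type G1, 16 of the 29 were called, 8 higher and 8 lower, a share near the 54.5% of all genes called, and none of the 29 values reached 1 in size. The extremes were FAR1, lower at -0.38 ± 0.05 SE (edgeR adjusted p = 3.9e-05), and DIG2, an inhibitor of Ste12, higher at 0.44 ± 0.04 SE (edgeR adjusted p = 4.3e-06). FUS1 was higher at 0.36 ± 0.09 SE (edgeR adjusted p = 0.00641) and STE7 lower at -0.26 ± 0.06 SE (edgeR adjusted p = 0.00449). STE11, STE20 and TEC1 were not called, at -0.06, -0.0023 and 0.12. Of the 10 mating genes under Ste12, 3 were higher, 1 was lower and 6 were not called. Matches to TGAAACA upstream were found for 16 of the 29 genes, beside 12% of all protein-coding genes searched. Of these 16, 9 were among the 10 mating genes, which were listed because they are targets of Ste12.

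**Figure D5:**
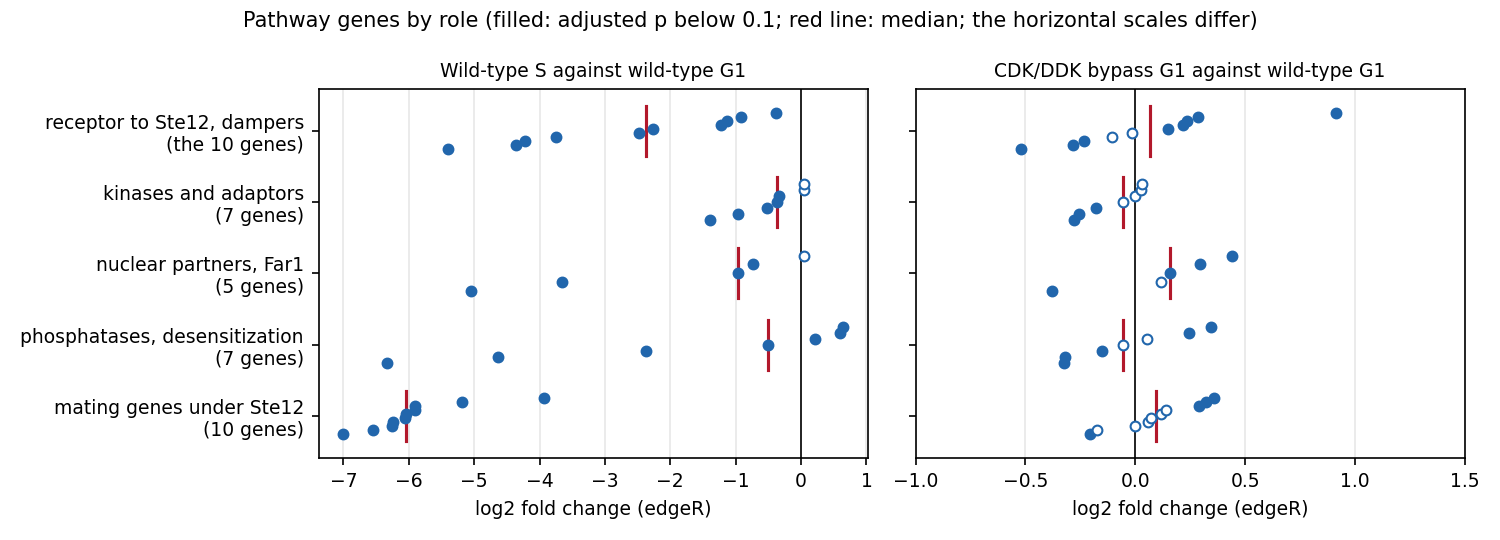
Log2 fold changes from edgeR of the 10 genes (top row) and of 29 further pathway genes by role, for wild-type S against wild-type G1 (left) and CDK/DDK bypass G1 against wild-type G1 (right), on different horizontal scales. Each point is a gene, filled where the adjusted p is below 0.1, and the red line is the median of the row. On the left the mating genes under Ste12 lie lowest, at -3.93 to -7.00, and the kinases and adaptors lie closest to 0, while on the right no row lies wholly on one side of 0.

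The likeness of other genes to the members was measured as the distance between their pairs of log2 fold changes (wild-type S against wild-type G1, and CDK/DDK bypass G1 against wild-type G1) over all 12 samples. STE2 and SST2 had no other gene within a distance of 0.25. The nearest to STE2 was tQ(UUG)D2, a transfer RNA gene, at 0.302, followed by MFA2, which encodes the pheromone of a cells, at 0.362. The level of tQ(UUG)D2 and the origin of its counts in polyadenylated RNA were not examined. For SST2 the nearest was YBR056W-A at 0.257, followed by MFA1, the other gene of the same pheromone, at 0.271. GPA1 was nearest to MOH1 at 0.0453, FUS3 to CHS1, a chitin synthase gene, at 0.114, and KSS1 to GND2, a gene of the pentose phosphate pathway, at 0.135. STE12 was nearest to YLR415C at 0.102, MSG5 to MHO1 at 0.0559 and STE18 to WTM1 at 0.0176, but 26, 32 and 150 genes lay within 0.25 of these members.

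Markers of mating type and phase moved with these comparisons as follows. Of the 6 a cell markers, STE2 among them, the summed level was 700 to 1141 TPM in wild-type S, 28055 to 29818 TPM in CDK/DDK bypass G1 and 30886 to 34404 TPM in wild-type G1. BAR1, which encodes the protease of a cells that degrades α-factor, went the other way, with 167 to 368 counts per library in wild-type S, 1 to 9 in CDK/DDK bypass G1 and 6 to 9 in wild-type G1. The study worked with both BAR1 and bar1Δ cells and the labels give no BAR1 genotype for these strains, so a deletion of BAR1 in the strains of the G1 groups and low expression of the gene cannot be told apart here. The 4 α cell markers summed to 16.8 to 17.7 TPM in wild-type S, 33.9 to 38.7 TPM in CDK/DDK bypass G1 and 21.9 to 29.1 TPM in wild-type G1, most of it from SAG1, and 2 of the 4 had at most 3 counts in every wild-type S library. The 3 haploid markers summed to 27.1 to 30.6 TPM in wild-type S, 87.0 to 91.5 TPM in CDK/DDK bypass G1 and 72.1 to 91.9 TPM in wild-type G1. They did not move together. NEJ1 averaged 21.2 TPM in wild-type S, 20.9 TPM in CDK/DDK bypass G1 and 31.2 TPM in wild-type G1. HO was higher in CDK/DDK bypass G1 relative to wild-type G1 (log2 fold change 0.78, edgeR adjusted p = 0.0114), and RME1 was not called. In wild-type G1 replicates 1 to 4, HO had 14.5, 13.2, 30.0 and 28.6 TPM. The 6 S phase markers summed to 1141 to 1439 TPM in wild-type S, 118 to 127 TPM in CDK/DDK bypass G1 and 109 to 132 TPM in wild-type G1. Under this sum, RNR1 was higher in CDK/DDK bypass G1 than in wild-type G1 (log2 fold change 0.61, edgeR adjusted p = 7.26e-05). So was YOX1 (1.55, edgeR adjusted p = 0.00469), at means of only 2.25 and 0.782 TPM. CLN2 was lower (-0.31, edgeR adjusted p = 0.00523), and PCL1, CDC21 and POL1 were not called, beside 54.5% of all genes called. The 4 galactose genes were high in every group, at 16278 to 17819 TPM in wild-type S, 16941 to 17511 TPM in CDK/DDK bypass G1 and 14442 to 16750 TPM in wild-type G1. The part of any of these in the differences of the 10 genes was not tested.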

How the data were processed

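Polyadenylated RNA of 12 samples was analysed, with groups and replicate numbers taken from the sample labels. For each sample the authors deposited whole-number counts of reads on genes, made from reads aligned to sacCer3 with STAR 2.7.10a and counted by strand with htseq-count (HTSeq 2.0.1) without reads that align to several places, and neither normalized nor filtered. Besides 92 ERCC spike-ins the files list 6412 genes and other features, of which 6177 could be found in the R64 annotation. These hold 99.8% of the gene counts. Rows of reads assigned to no gene stayed out of library sizes and tests. Reads on no feature amounted to 3.36 to 5.52% and reads with several alignments to 5.70 to 6.35% of all rows of a file together. Spike-ins were 1.81 to 2.37% of the gene counts. The number of counts limits the precision of each value, and standard errors cover the spread between replicates.

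Groups were compared with edgeR 4.0.16 under R 4.3.3 (filterByExpr with a minimum count of 10, TMM, glmQLFit and glmQLFTest on all 12 samples with group as the only term), with Benjamini-Hochberg adjustment over 5662 genes and a threshold of 0.1. SEs were derived from the log2 fold change and its F statistic. TPM are counts divided by gene length and scaled to the same total in each sample without TMM, so that ratios of mean TPM differ slightly from the fitted fold changes. Ratios were compared by exact permutation tests. Levels, ratios and motif searches were computed in Python 3.11.15 (pandas 2.3.3, numpy 2.4.6, scipy 1.17.1) and figures drawn with matplotlib 3.10.9.

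The members and gene lists were chosen with earlier results of these data known. All members are named. Of the 29 further pathway genes, values are given for the lowest and highest in each comparison and for FAR1, STE7, STE11, STE20, TEC1 and FUS1, and genes of like pattern are the nearest by distance. Alternatives were DESeq2 1.42.0, other scalings, filters, thresholds and subsets of replicates, and the replicate block. The labels do not say that replicate numbers mark a shared batch. Deviations of same-numbered samples from their group means correlated at 0.103 to 0.177 for wild-type S with wild-type G1. They correlated at 0.0711 to 0.227 for CDK/DDK bypass G1 with wild-type G1 and at -0.0011 to 0.0130 for CDK/DDK bypass G1 with wild-type S. Samples with different numbers but of the same pair (1 and 2, or 3 and 4) correlated at 0.0733 to 0.200 in the first comparison and 0.1125 to 0.202 in the second. Samples of different pairs correlated at -0.188 to -0.058 and at -0.2422 to -0.0826. In both comparisons with wild-type G1, the split into pairs, and not only the number, thus ran through both groups.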

Additional observations from a re-analysis of the deposited data

Results flagged for a closer look

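STE18 in CDK/DDK bypass G1 replicate 3 stood apart from its group at 259 TPM, where the other 3 replicates had 276 to 279 TPM. It was the only sample to do so among 42 groups of 4 values checked (the 10 genes and the 4 ratios in 3 groups each), of which chance alone would flag about 2.1, or 1 in 20.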

How the results depend on the processing

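The falls of the 10 genes in wild-type S kept their direction under all alternatives, against either arrested group, and 248 of 250 values per comparison also kept their side of the threshold; the other 2 were STE4 and STE5 when changes had to exceed a log2 value of 1. Between CDK/DDK bypass G1 and wild-type G1, 216 of 250 values kept both, 23 were no longer called, 6 became called with the same sign and 5 changed sign, of which 2 were called (STE12 with spike-in totals and with replicates 1 and 2 only). The changes of sign were FUS3 with spike-in totals (0.11) and STE12 with RLE normalization (0.0018), with spike-in totals (0.20), with replicates 1 and 2 only (0.0843) and when replicates were left out one at a time (-0.0356 to 0.0153, positive without wild-type G1 replicate 4), and for STE12 the sign was within its error in the main setting. Spike-in totals moved the median of all genes to 0.20 in this comparison, 0.05 for wild-type S against wild-type G1 and -0.16 for wild-type S against the bypass. The share of calls that were higher was then 91.0%, 53.6% and 40.2%, in place of 47.7%, 48.3% and 48.8%. When changes had to exceed a log2 value of 1, the calls for CDK/DDK bypass G1 against wild-type G1 were 0 of 10 members (8 in the main setting), 0 of 29 other pathway genes (16) and 29 of all genes (3083). In wild-type S that test called 16 of 29 other pathway genes against either arrested group (26), and 855 and 1000 of all genes (4743 and 4818). Pair sums of replicates called 5 members, 6 other pathway genes and 1477 of all genes between the arrested groups, and replicates 1 and 2 alone called 25 other pathway genes. Replicates 1 and 2 alone also called more of all genes than the 3083 of the main setting, so the rise in calls was not particular to the pathway genes. With replicates 1 and 2 alone and replicates 3 and 4 alone, the log2 difference of FUS3/KSS1 was -2.63 and -2.41 in wild-type S against wild-type G1 (-2.52 in the main setting) and -1.59 and -1.42 against the bypass (-1.50). That of STE4/GPA1 was 3.44 and 3.18 (3.31), and 3.51 and 3.21 (3.36), and that of STE18/STE4 between the arrested groups 0.54 and 0.31 (0.43). The cause of these differences was not tested. With the replicate block, 10, 10 and 7 members were called in wild-type S against wild-type G1, wild-type S against the bypass and the bypass against wild-type G1. The shares of all genes called with the block were slightly above those of the main setting, which were 83.8%, 85.1% and 54.5% in the same order. STE2 between the arrested groups was the call lost (log2 fold change 0.22, edgeR adjusted p = 0.114), and no other member's call changed.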
